A study of Saccharomyces cerevisiae with 17 samples.

Results

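The 10 genes described here code for the core histones, the variant H2A.Z and the linker histone of Saccharomyces cerevisiae, budding yeast. CSE4, the gene of the centromeric histone, is not among them. They were chosen by name from the count table, as HTA1 (YDR225W) and HTA2 (YBL003C) for H2A, HTB1 (YDR224C) and HTB2 (YBL002W) for H2B, HHT1 (YBR010W) and HHT2 (YNL031C) for H3, HHF1 (YBR009C) and HHF2 (YNL030W) for H4, HTZ1 (YOL012C) for the variant H2A.Z and HHO1 (YPL127C) for the linker histone. They are 10 of 7126 features in the table, and all 10 were among the 6195 that passed the filter on low counts. The rule uses names alone, although the set was chosen with earlier results of these data known.

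All 17 mRNA sequencing libraries came from 1 strain, BY25598, a MATa haploid with the XRN1-AID allele, ADH1-OsTIR1-9Myc (URA3) at ura3-1 and mutant alleles of the marker genes can1, trp1, leu2, his3 and ade2, which all groups share. Xrn1 is the main cytoplasmic 5′ to 3′ exonuclease, and the degron tag lets the plant receptor OsTIR1, driven here by the ADH1 promoter, mark it for destruction once auxin is added. Cells in log phase in rich medium (YPD, 30 ºC) received 500 µM auxin for 30 min (Xrn1-AID) or none (Xrn1-WT), so the controls carry the tagged allele too and no untagged strain was compared. Each arm was sampled without stress (0 min) and after 10 and 30 min in 0.4 M NaCl, with 3 libraries per group but 2 for Xrn1-AID at 30 min. No solvent control for auxin is named, and nothing in the labels tells if replicates grew as separate cultures, so p-values may measure technical spread only.

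Histone octamers wrap the DNA of each nucleosome, and new ones are needed whenever DNA is copied. In budding yeast the core histone genes lie as divergent pairs, each pair sharing 1 promoter region, and their transcription peaks from late G1 into S phase. Spt10 binds sites in these shared promoters, the G1/S factor SBF (Swi4 with Swi6) also acts there, and the HIR proteins repress most of the pairs outside S phase. H2A.Z is placed beside promoters by the SWR1 complex, and the linker histone Hho1 binds DNA between nucleosomes.

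The shared promoters are shown because they tie the core genes to each other. HTB1 and HTA1 lay on chromosome IV at chrIV:914317-914712 (minus strand) and chrIV:915530-915928 (plus strand), 817 bases apart. HTA2 and HTB2 lay at chrII:235394-235792 (minus) and chrII:236492-236887 (plus), 699 bases apart. HHF1 and HHT1 lay at chrII:255373-255684 (minus) and chrII:256331-256741 (plus), 646 bases apart, and HHT2 and HHF2 at chrXIV:575640-576050 (minus) and chrXIV:576727-577038 (plus), 676 bases apart. HTZ1 at chrXV:303579-303983 and HHO1 at chrXVI:308828-309604, both on the minus strand, have no such partner. These are coding regions in the RefSeq annotation of R64, the sacCer3 build; each is 1 exon, no other annotated gene overlaps it, and no annotated gene lies within the 4 intervals. The 150 bases of each interval around its Spt10 sites read as follows on the plus strand of the RefSeq R64 genome, with matches to the Spt10 site in capitals.
HTA1-HTB1, chrIV:915058-915207: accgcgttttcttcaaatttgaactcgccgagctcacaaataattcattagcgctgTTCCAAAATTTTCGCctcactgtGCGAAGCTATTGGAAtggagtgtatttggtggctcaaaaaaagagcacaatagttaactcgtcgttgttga
HTA2-HTB2, chrII:236040-236189: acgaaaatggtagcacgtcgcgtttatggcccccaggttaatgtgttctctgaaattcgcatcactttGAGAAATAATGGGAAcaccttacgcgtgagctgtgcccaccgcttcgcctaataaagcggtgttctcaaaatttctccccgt
HHT1-HHF1, chrII:255876-256025: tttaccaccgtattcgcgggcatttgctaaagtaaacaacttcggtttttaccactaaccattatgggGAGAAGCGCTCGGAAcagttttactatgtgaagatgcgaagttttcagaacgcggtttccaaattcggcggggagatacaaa
HHT2-HHF2, chrXIV:576278-576427: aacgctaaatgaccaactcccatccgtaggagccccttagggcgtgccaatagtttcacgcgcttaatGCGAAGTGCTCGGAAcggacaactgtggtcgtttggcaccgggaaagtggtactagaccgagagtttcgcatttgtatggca

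The motif searched was the Spt10 site as known from histone promoters, TTCC, any 6 bases, then TTCNC, on both strands. Matches in these intervals were therefore likely from the start and test nothing. Each of the 5 matches is given here on its own strand, 5′ to 3′, with the fixed letters in capitals. The HTA1-HTB1 interval held 2 and each of the other 3 intervals held 1.
HTA1-HTB1, chrIV:915114-915128, plus strand: TTCCaaaattTTCgC
HTA1-HTB1, chrIV:915137-915151, minus strand: TTCCaatagcTTCgC
HTA2-HTB2, chrII:236108-236122, minus strand: TTCCcattatTTCtC
HHT1-HHF1, chrII:255944-255958, minus strand: TTCCgagcgcTTCtC
HHT2-HHF2, chrXIV:576346-576360, minus strand: TTCCgagcacTTCgC

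Within 600 bases before the coding start, all 8 core genes had an Spt10 match, and 3.46% of 6005 yeast genes did. The 8 genes share 4 regions and are not 8 separate matches. Since the motif is itself that of histone promoters, these shares are no test of enrichment. That window was taken after the one from 250 bases before to 50 after the coding start held no match for any of the 10 genes (1.48% of 6007 genes had one). The Swi4 motif CNCGAAA lay within 600 bases of HTA1, HTB1, HHT2, HHF2, HTZ1 and HHO1 (24.7% of all genes). The MBF motif ACGCGT lay there for HTA2 and HTB2 (6.34%), and the stress response element AGGGG for 7 members, all but HTA2, HTB2 and HTZ1 (39.7%). A match is a string of letters and not a measured binding site.

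Libraries held 13.9 to 30.4 M counts, and 3 counts, the limit that a count of 0 allows, were worth 0.104 to 0.279 counts per M counts (CPM, here scaled by TMM factors, which ranged from 0.591 to 1.48). Such floors cover counting error only, and every histone value below lay far above them. The 5 MATa markers summed to 207 to 854 CPM and the MAT alpha markers to 0.484 to 1.8 CPM. XRN1 mRNA ran from 12.2 to 47.6 CPM in Xrn1-WT and from 34.1 to 69.998 CPM in Xrn1-AID; the degron acts on the protein, so this does not check the depletion. Over all genes, the libraries farthest from the rest of their groups were Xrn1-WT 0 min replicate 3 and Xrn1-WT 10 min replicate 2. Their median absolute log2 deviations were 0.41 and 0.36, with 0.35 for Xrn1-WT 0 min replicate 2. Their core histone genes stood 0.32 and 0.56 log2 above those of the other replicates. Other libraries also deviated by more than 0.32, such as Xrn1-WT 10 min replicate 1 (-0.42) and Xrn1-WT 30 min replicate 1 (0.37). Scaling by library size alone moved the median log2 change of all genes by -0.44, 0.42 and 0.85 in Xrn1-WT (10 against 0, 30 against 0 and 30 against 10 min) and by -0.32, 0.29 and 0.61 in Xrn1-AID.

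Without stress, Xrn1-WT cells held the core histone mRNAs at group means of 1195 to 2858 CPM per kilobase, well above the variant and linker genes. Per kilobase of coding length, HTB1 was highest at 2858 ± 762 CPM (SD, n = 3), followed by HHF2 at 2587 ± 327, HHT2 at 2072 ± 413, HHF1 at 1838 ± 75.7, HTA1 at 1835 ± 751 and HHT1 at 1475 ± 161. HTB2 at 1391 ± 298 and HTA2 at 1195 ± 377 closed the core set. Neighbours in this order differed by less than the larger of their SDs, except HHF2 and HHT2. Genes farther apart could separate, as every HHF2 library lay above every HTB2 and HTA2 library. HTZ1 at 186 ± 15.8 CPM per kilobase and HHO1 at 120 ± 10.8 formed a lower tier, separated from the core genes and from each other by more than their spread. In all, the 8 core genes took 0.564 ± 0.0683% of the counts. The cultures were not synchronised, so in these bulk libraries fewer cells in S phase and less histone mRNA per cell cannot be told apart.

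**Figure D1:**
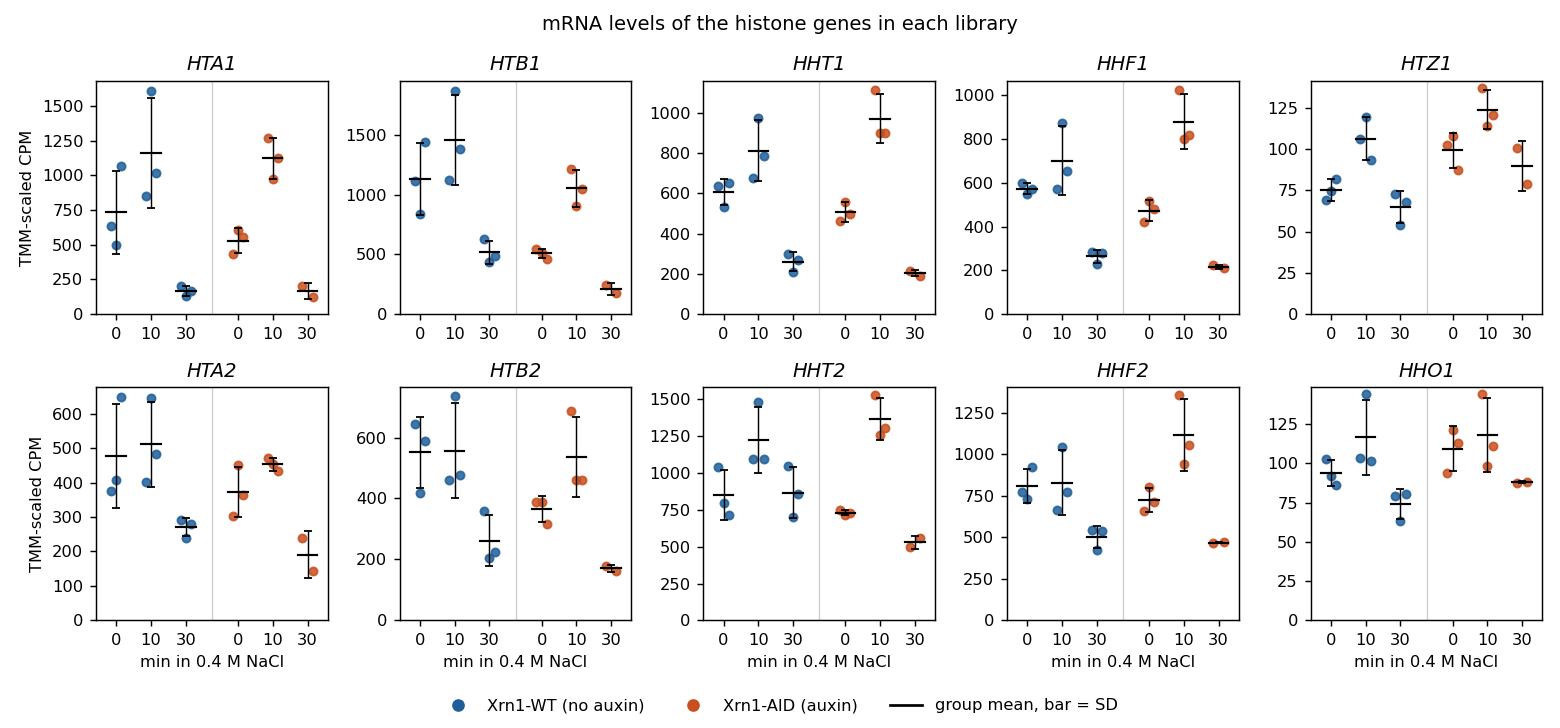
TMM-scaled CPM of each of the 10 histone genes against min in 0.4 M NaCl, with a point for each library, a line for the group mean and a bar for the SD, Xrn1-WT on the left and Xrn1-AID on the right of each panel. On this scale most core genes are lowest at 30 min in both arms; HHT2 in Xrn1-WT, at 702 to 1043 CPM, is not. With library size as the only scaling, the 10 min values of Xrn1-WT are lower relative to 0 min for 6 of the 8 core genes.

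The first comparisons asked how histone mRNAs moved in NaCl. In Xrn1-WT most core genes were not called at 10 min and were lower at 30 min, most of all HTA1. At 10 min, 2 of 10 genes were called higher, HHT2 and HTZ1, where 19.7% of all 6195 tested genes were called higher (edgeR quasi-likelihood test, Benjamini-Hochberg adjusted p under 0.05). That count was 1 without Xrn1-WT 0 min replicate 1 or 2 or Xrn1-AID 0 min replicate 3, 4 without Xrn1-WT 10 min replicate 1 (with HTA1 and HHT1, adjusted p = 0.0472 and 0.0343) and 0 without Xrn1-WT 10 min replicate 2. By library size alone HHF2 was lower, no member was higher and the core median turned from 0.33 to -0.12. At 30 min against 0 min, 7 of 10 were lower, against 27.5% of all genes, and the median log2 change of the 8 core genes was -1.10 beside 0.01 for all genes. From 10 to 30 min all 10 fell, against 25.7% of all genes, with a core median of -1.25 beside 0.08. These core medians were -0.66 and -0.36 by library size alone, the last count was 4, and HHT2, HHF2, HTZ1 and HHO1 turned positive at 0.38, 0.16, 0.16 and 0.24.

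The same times in Xrn1-AID showed a clear rise before the fall. At 10 min, 6 of 10 genes were higher, against 19.0% of all genes, with a core median log2 change of 0.90 beside -0.03. At 30 min against 0 min, 7 of 10 were lower, against 26.6%, with a core median of -1.11 beside 0.01. Between 10 and 30 min, 9 of 10 fell, against 22.1%, with a core median of -1.84 beside 0.01. The libraries at 10 and 0 min did not overlap for 3 of 10 members in Xrn1-WT (46.0% of all genes) and 8 of 10 in Xrn1-AID (56.2%). Those at 30 and 0 min did not for 8 (60.8%) and 9 (70.0%), and those at 30 and 10 min for all 10 in both arms (64.5% and 63.2%). The core genes' share of all counts, which needs no scaling factor, went from 0.564 ± 0.0683 to 0.522 ± 0.0438 and 0.414 ± 0.037% in Xrn1-WT. In Xrn1-AID it went from 0.4397 ± 0.007 to 0.625 ± 0.0597% (n = 3 each) and then 0.274 ± 0.00579% (n = 2).

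**Figure D2:**
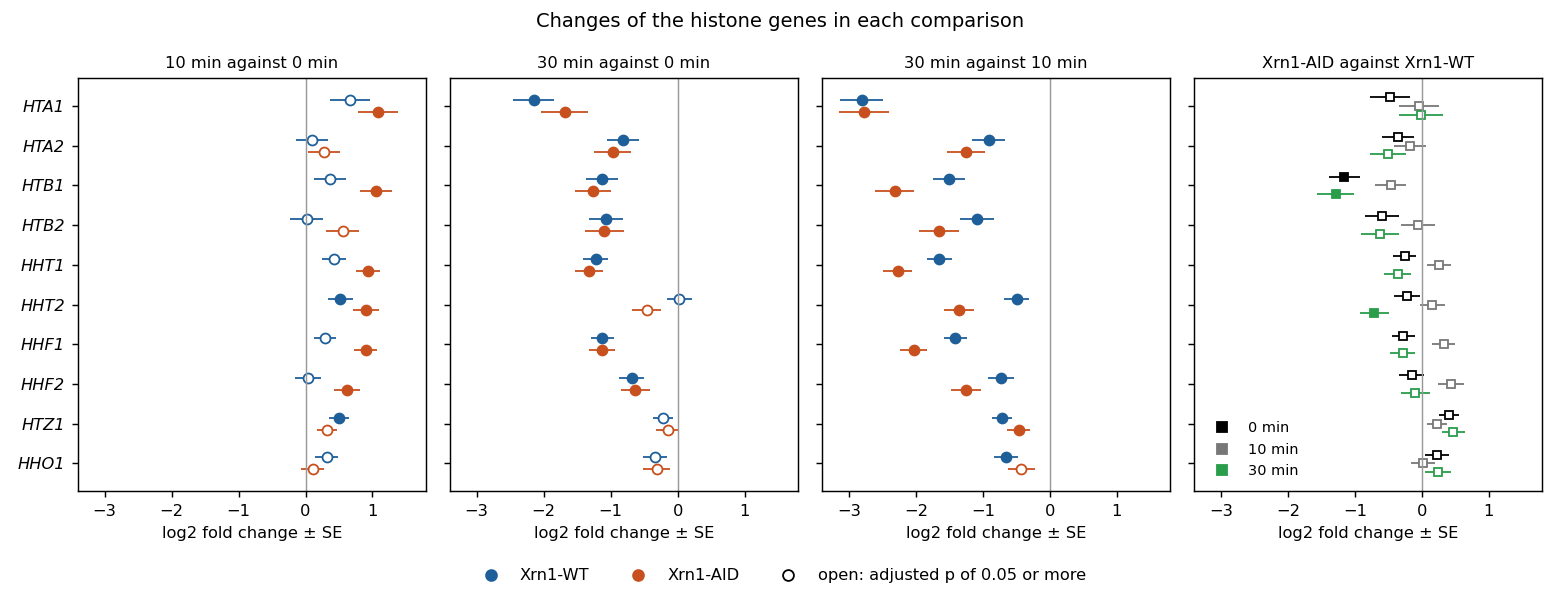
log2 fold change of each histone gene with its standard error for the NaCl comparisons within each arm and for the auxin arm against its control at each time, with filled points for adjusted p under 0.05. The 30 min changes lie below 0 for every core gene but HHT2 in Xrn1-WT; by library size alone the 10 min changes of 6 of 8 core genes in Xrn1-WT lie below 0.

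HTA1, 1 of the 2 H2A genes, moved most. In Xrn1-WT it stood at 631, 496 and 1069.6 CPM without stress, then 851, 1604 and 1019, then 200.1, 127 and 169. The 30 min libraries lay below all others, while the 0 and 10 min groups overlapped. The change at 10 min was 0.66 ± 0.30 (log2, SE; edgeR adjusted p = 0.0834), from 0.33 to 1.02 with 1 library left out. It passed without Xrn1-WT 0 min replicate 3 (1.02, adjusted p = 0.00875) or 10 min replicate 1 (0.84, adjusted p = 0.0472) and in DESeq2 (0.72, adjusted p = 0.049). The change at 30 min was -2.15 ± 0.31 (adjusted p = 1.57e-05), a level 4.43-fold lower. Its Xrn1-AID libraries gave 431, 602 and 552 CPM, then 1266, 974 and 1126, then 203 and 125, with no overlap between any of these groups. It rose by 1.09 ± 0.30 at 10 min (adjusted p = 0.00962) and fell by 1.69 ± 0.35 at 30 min (adjusted p = 0.000745).

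HTA2, the other H2A gene, had a flatter course. Its Xrn1-WT libraries read 374, 406 and 649 CPM without stress, then 402, 646 and 483, then 292, 240.1 and 279.99. Only the 30 min group stood clear of the others, at -0.82 ± 0.24 on the log2 scale (edgeR adjusted p = 0.0083). Without Xrn1-WT 0 min replicate 3 that change was -0.52, with an adjusted p of 0.0649, and by library size alone it was -0.34 (adjusted p = 0.0714). In Xrn1-AID, HTA2 read 304, 450.04 and 365 CPM, then 471, 453 and 434, then 238 and 143, and again only the last group did not overlap the first. Its change there at 30 min was -0.97 ± 0.28 (adjusted p = 0.00736), and -0.65 (adjusted p = 0.118) without Xrn1-AID 30 min replicate 2.

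HTB1, the more abundant H2B mRNA, differed between the arms. In order of time (0, 10 and 30 min) its values in Xrn1-WT were 1116, 839 and 1442 CPM without stress, then 1125, 1868 and 1382, then 625, 433 and 489. In Xrn1-AID they were 546, 513 and 464 CPM without stress, then 1213, 904 and 1044, then 246 and 176. At 0 and at 30 min every Xrn1-AID library lay below every Xrn1-WT library, and at 10 min the arms overlapped. NaCl for 30 min lowered HTB1 by similar amounts, -1.13 ± 0.24 in Xrn1-WT (edgeR adjusted p = 0.000613) and -1.26 ± 0.27 in Xrn1-AID (adjusted p = 0.00097). At 10 min it rose in Xrn1-AID by 1.05 ± 0.24 (adjusted p = 0.00225), and its change in Xrn1-WT was 0.37 ± 0.23 (adjusted p = 0.222). HTB2, the other H2B gene, ran from 419 to 645 CPM, 461 to 735 and 204 to 359 in Xrn1-WT and from 316 to 389, 459 to 688 and 162 to 179.5 in Xrn1-AID. It fell by 1.07 ± 0.25 (adjusted p = 0.00163) and 1.10 ± 0.29 (adjusted p = 0.00439) at 30 min.

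The H3 genes parted from each other. HHT1 read 637, 530.1 and 651 CPM in Xrn1-WT without stress, then 677, 976 and 785, then 299.6, 208 and 270.04, and the 3 groups did not overlap. HHT2 read 1041, 799 and 715 CPM, then 1094, 1477 and 1096, then 1043, 702 and 854, so that its 30 min libraries covered the range of the 0 min ones. The log2 change at 30 min was -1.23 ± 0.18 for HHT1 (edgeR adjusted p = 1.93e-05) and 0.02 ± 0.19 for HHT2 (adjusted p = 0.923). HHT2 was called higher at 10 min, by 0.52 ± 0.19 (adjusted p = 0.0362). It fell again from 10 to 30 min, by 0.50 ± 0.19 (adjusted p = 0.0362), a call that was lost without Xrn1-WT 10 min replicate 2 (-0.30, adjusted p = 0.206), Xrn1-WT 30 min replicate 2 or 3 or Xrn1-AID 0 min replicate 3 (0.0603 to 0.151). The call at 10 min was lost without Xrn1-WT 0 min replicate 2 (adjusted p = 0.0949) or replicate 3 (0.12), Xrn1-WT 10 min replicate 2 (0.34 log2, adjusted p = 0.18) or Xrn1-AID 0 min replicate 3 (0.0553). A fit of only the compared groups ended both calls (adjusted p = 0.135 at 10 min and 0.0812 from 10 to 30 min), and by library size alone the change of HHT2 at 10 min was 0.03.

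In Xrn1-AID, HHT1 read 461, 559 and 499.9 CPM, then 1113, 902 and 900.3, then 212 and 191. HHT2 read 745, 712 and 731 CPM, then 1527, 1257 and 1306, then 499 and 561. Both showed 3 separate levels, highest at 10 min and lowest at 30 min. At 10 min HHT1 rose by 0.94 ± 0.18 (edgeR adjusted p = 0.000607) and HHT2 by 0.90 ± 0.19 (adjusted p = 0.00153). At 30 min HHT1 fell by 1.33 ± 0.21 (adjusted p = 4.96e-05), and the change of HHT2 was -0.46 ± 0.22 (adjusted p = 0.0833).

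Of the H4 genes, too, the copy on chromosome II had the larger fall at 30 min. HHF1, the partner of HHT1, read 597, 550.002 and 573 CPM, then 574, 876 and 656, then 282, 228 and 279.7 in Xrn1-WT. It fell by 1.12 ± 0.17 at 30 min (edgeR adjusted p = 2.85e-05) with no overlap with 0 min. HHF2, the partner of HHT2, read 771, 728 and 922 CPM, then 666, 1044 and 774, then 542, 425 and 536, and fell by 0.69 ± 0.19 (adjusted p = 0.00598). That call ended by library size alone (-0.25, adjusted p = 0.128). So scaled, HHF2 was lower at 10 min in Xrn1-WT, at -0.41 (adjusted p = 0.0185), where TMM scaling gave 0.04 ± 0.19 (adjusted p = 0.894). In Xrn1-AID, HHF1 rose by 0.90 ± 0.17 (adjusted p = 0.000596) and then fell by 1.13 ± 0.20 below 0 min (adjusted p = 0.000133). HHF2 read 659, 801 and 715 CPM, then 1355, 941 and 1053, then 468 and 469.7. It rose by 0.62 ± 0.19 at 10 min (adjusted p = 0.0191) and was lower by -0.63 ± 0.22 at 30 min (adjusted p = 0.0234). The first of these calls was lost without Xrn1-AID 0 min replicate 1 or 3 or 10 min replicate 1 (adjusted p from 0.0555 to 0.104), and the second without any of 0 min replicates 2 and 3 and the 30 min replicates (adjusted p from 0.0514 to 0.0984). Both ended by library size alone (0.30, adjusted p = 0.0971, and -0.34, adjusted p = 0.0792).

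HTZ1 and HHO1 were not called at 30 min against 0 min in either arm. HTZ1 read 69.2, 74.6 and 82.02 CPM in Xrn1-WT without stress, then 106, 119 and 93.4, then 72.7, 54.3 and 67.7. Its 10 min libraries lay above both other groups, with a rise of 0.50 ± 0.15 over 0 min (edgeR adjusted p = 0.0145) that fell to 0.44 and 0.38 (adjusted p = 0.059 and 0.0751) without Xrn1-WT 0 min replicate 1 or 10 min replicate 2. The change was 0.06 (adjusted p = 0.79) by library size alone. In Xrn1-AID it read 103, 108 and 87.6 CPM, then 137, 114 and 121, then 101 and 79.02, and neither change from 0 min was called (0.32 ± 0.15, adjusted p = 0.117, and -0.15 ± 0.17, adjusted p = 0.491). The fall from 10 to 30 min was called (-0.47 ± 0.17, adjusted p = 0.0394), but not without Xrn1-AID 10 min replicate 1 or 3, Xrn1-AID 30 min replicate 2 or Xrn1-WT 30 min replicate 3 (adjusted p from 0.05002 to 0.288). It was also lost with DESeq2 size factors, a filter at a mean of 10 CPM or only the compared groups (adjusted p from 0.0578 to 0.075), and by library size alone it was 0.14. HHO1 ran from 62.95 to 144 CPM over all 17 libraries, and no change from 0 min was called in either arm (adjusted p from 0.111 to 0.673). From 10 to 30 min in Xrn1-WT, HTZ1 fell by 0.71 ± 0.15 (adjusted p = 0.000879) and HHO1 by 0.65 ± 0.18 (adjusted p = 0.00482), and by library size alone both signs turned, as given above.

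The next comparisons set Xrn1-AID beside Xrn1-WT at each time. At 0 min HTB1 was the only member called, at -1.16 ± 0.24 (edgeR adjusted p = 0.00206), or 1 of 10 where 16.4% of all genes were called lower. At 10 min none of the 10 was called, where 28.2% of all genes were called in either direction; 1 member had an unadjusted p under 0.05, and DESeq2 called none. Without Xrn1-WT 10 min replicate 2 that count was 2, with HHF1 at 0.55 (adjusted p = 0.0314) and HHF2 at 0.66 (adjusted p = 0.0276) higher in Xrn1-AID. Library size alone gave 3, with HHT1 at 0.46, HHF1 at 0.53 and HHF2 at 0.64 (adjusted p = 0.034, 0.0228 and 0.00664). At 30 min HTB1, at -1.29 ± 0.27 (adjusted p = 0.00414), and HHT2, at -0.71 ± 0.22 (adjusted p = 0.0292), were lower, against 11.0% of all genes. Without Xrn1-AID 30 min replicate 2 neither passed (-1.07, adjusted p = 0.0684, for HTB1 and -0.80, adjusted p = 0.101, for HHT2). The call on HHT2 was also lost without Xrn1-AID 30 min replicate 1 (adjusted p = 0.159) or Xrn1-WT 30 min replicate 1 (0.103) or 3 (0.0614). At 0 min HTB2, at -0.60 ± 0.25 (adjusted p = 0.0787), passed without Xrn1-WT 0 min replicate 2 or Xrn1-WT 10 min replicate 2 (adjusted p = 0.0303 and 0.0483). HTZ1 was above its Xrn1-WT libraries in every Xrn1-AID library at 0 and 30 min without passing the test (0.40 ± 0.15, adjusted p = 0.0541, and 0.47 ± 0.17, adjusted p = 0.0561). It passed at 0 min without Xrn1-WT 10 min replicate 2, Xrn1-WT 30 min replicate 2 or either Xrn1-AID 30 min library (adjusted p from 0.0453 to 0.0496), and at 30 min without Xrn1-WT 0 min replicate 3 or Xrn1-WT 10 min replicate 2 (0.0442 and 0.0484). At 30 min HTZ1 also passed in the DESeq2 Wald test (0.46, adjusted p = 0.04995) and with a filter at a mean of 10 CPM (0.50, edgeR adjusted p = 0.0493). The arms did not overlap for 4 of 10 members at 0 min (43.4% of all genes), 0 at 10 min (49.7%) and 7 at 30 min (53.6%), shares near or below those of all genes at the first 2 times.

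Whether the responses themselves differed was tested as an interaction. None of the 10 genes was called in any of the 3 differences, where 0.775%, 1.55% and 1.37% of all genes were called (10 against 0, 30 against 0 and 30 against 10 min). At an unadjusted p under 0.05 the members counted 2, 0 and 4, the lowest edgeR adjusted p-values were 0.196, 0.386 and 0.12, and DESeq2 called none. All 8 core genes had a positive difference at 10 min, up to 0.69 on the log2 scale. Between the arms, all 8 lay lower in Xrn1-AID at 0 min (median log2 change -0.32). At 10 min 4 lay higher and 4 lower (median 0.06). The rise at 10 min was thus past the threshold for 6 genes in Xrn1-AID and 2 in Xrn1-WT without a difference between the arms being shown for any of them.

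The 2 copies of each core histone gene code for the same or nearly the same protein, and the share of a pair's counts that 1 copy takes does not depend on scaling. The H2A, H3 and H4 pairs shifted away from HTA1, HHT1 and HHF1 at 30 min. HTA1 took 60.0 ± 4.35% of the H2A counts at 0 min, 69.0 ± 1.96% at 10 min and 37.6 ± 3.04% at 30 min in Xrn1-WT, and 58.7, 71.1 and 46.4% in Xrn1-AID. Over both arms the share was 10.7 percentage points higher at 10 min and changed by -17.3 points at 30 min, each against 0 min (exact permutation tests within arms, two-sided, p = 0.005, the smallest these arrangements can give; adjusted over 12 tests, 0.00986). HHT1 took 41.8, 39.9 and 23.1% of the H3 counts in Xrn1-WT and 40.9, 41.6 and 27.6% in Xrn1-AID. Its share fell by 16.1 points at 30 min (exact permutation adjusted p = 0.00986) and changed by -0.643 points at 10 min (0.785). HHF1 rose by 4.503 points of the H4 counts at 10 min and fell by 7.58 at 30 min (exact permutation adjusted p = 0.00986 for both).

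Averaged over the 3 times, the H2B pair differed most between the arms. HTB1 took 67.0, 72.4 and 66.7% of the H2B counts in Xrn1-WT and 58.2, 66.5 and 55.0% in Xrn1-AID. Over the 3 times its share in Xrn1-AID differed by -8.78 points, with lower means at each time (exact permutation test within times, two-sided, p = 0.00025, the smallest possible; adjusted 0.003). It rose by 6.81 points at 10 min (adjusted p = 0.015), and at 30 min the difference of -1.77 points did not pass (exact permutation adjusted p = 0.393). For HHF1 the difference between the arms was -2.31 points (exact permutation adjusted p = 0.00986). The differences between the arms for HTA1, 3.19 points, and HHT1, 1.77 points, did not pass (exact permutation adjusted p = 0.129 and 0.28). For HHT1 the difference was 2.74 points without Xrn1-WT 0 min replicate 3 (exact permutation adjusted p = 0.0173).

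**Figure D3:**
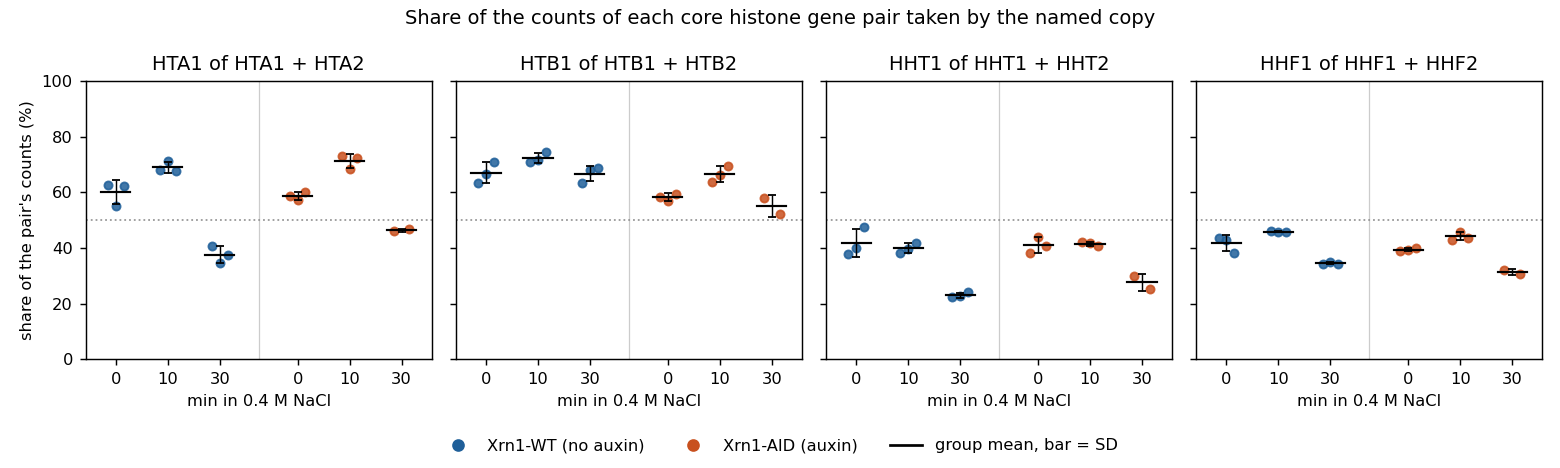
Share of the counts of each core histone gene pair taken by the named copy (%), against min in 0.4 M NaCl, with a point for each library, a line for the group mean and a bar for the SD. HTA1 goes from 60.0% at 0 min to 37.6% at 30 min in Xrn1-WT, and HTB1 is lower in Xrn1-AID than in Xrn1-WT at each time.

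Coding sequences of the copies were 93.7% (H2A), 87.9% (H2B), 93.2% (H3) and 97.4% (H4) identical, and the reads were 50 bases long. Of all 50-base stretches of the coding region, 95.4%, 100.0%, 87.8% and 78.7% occur only once in the genome. Stretches within 2 mismatches of the other copy made up 28.3%, 8.93%, 50.0% and 85.9%. How the authors' counting treated reads with more than 1 alignment is not given in the sources used here. The split between HHF1 and HHF2 is therefore uncertain, and to a lesser degree those between HHT1 and HHT2 and between HTA1 and HTA2. The H2B split, for which every such stretch is unique, is the least exposed to this.

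Genes that share a promoter region did not always move together. The HTA1 to HTB1 ratio per coding base, a comparison chosen after the values were seen and given with no test, was -0.83, -0.77 and -0.44 (log2) at 0 min in Xrn1-WT, -0.41, -0.23 and -0.45 at 10 min and -1.65, -1.78 and -1.55 at 30 min. In Xrn1-AID it was -0.35, 0.22 and 0.24, then 0.05, 0.10 and 0.10, then -0.29 and -0.51. Every Xrn1-AID library thus had more HTA1 per HTB1 than every Xrn1-WT library of the same time. The HHT1 to HHF1 ratio varied least, with group means from -0.49 to -0.18. HHT2 to HHF2 went from -0.33 ± 0.40 at 0 min to 0.38 ± 0.14 at 30 min in Xrn1-WT, and from -0.38 ± 0.17 to -0.22 ± 0.12 in Xrn1-AID. HTA2 to HTB2 had group means from -0.24 to 0.10 with SDs of 0.12 to 0.49.

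**Figure D4:**
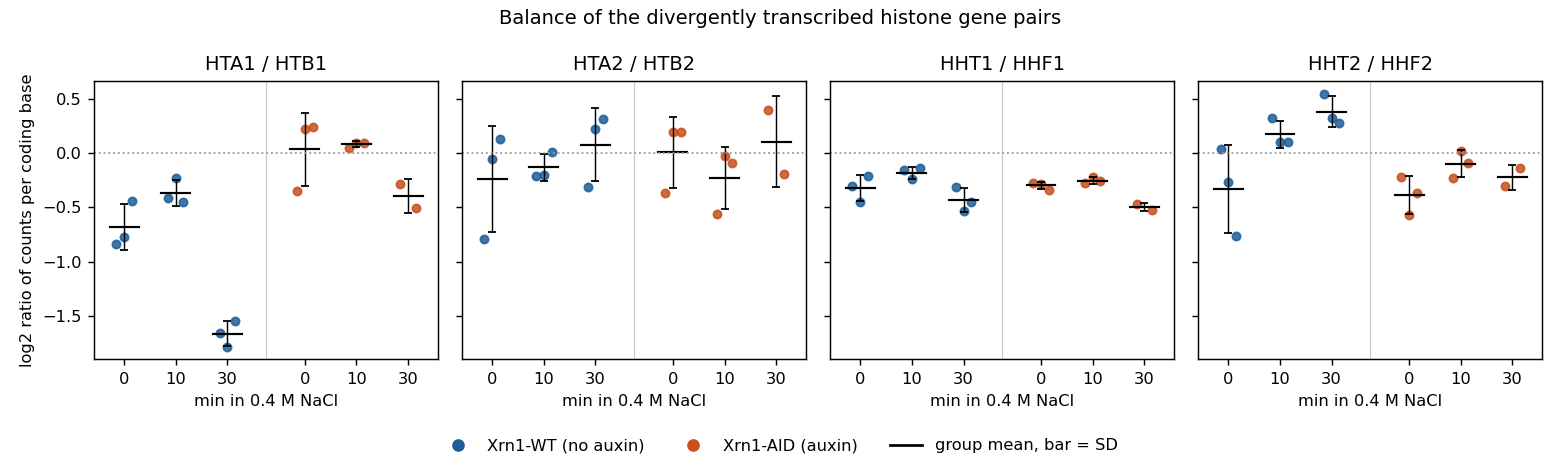
log2 ratio of counts per coding base between the genes of each divergent pair against min in 0.4 M NaCl, with a point for each library, a line for the group mean and a bar for the SD. For HTA1 to HTB1 the Xrn1-WT group at 30 min lies lowest, at -1.66, and the Xrn1-AID groups lie above the Xrn1-WT groups of the same time.

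Across the 17 libraries the log2 CPM of each core gene followed the mean of the other core genes, with Pearson's r from 0.779 (HHT2) to 0.98 (HHT1), against 0.612 for HTZ1 and 0.723 for HHO1. HHT1 and HHF1 had r = 0.995. These values describe libraries that share groups and scaling factors. Of 5099 other genes with a mean of at least 10 CPM, the 8 most like the core mean over the same 17 libraries were CCS1 (r = 0.978), RNR2 (0.976), RNR4 (0.955), HOM2 (0.953), ARC1, RPL10, OYE2 and ASN2 (0.931 to 0.929). Ccs1 is the copper chaperone of superoxide dismutase, and Rnr2 and Rnr4 form the small subunit of ribonucleotide reductase, which makes deoxyribonucleotides. RNR2 went from 307 CPM at 0 min to 473 at 10 min and 134 at 30 min in Xrn1-WT, and from 260.5 to 366 and 87.5 in Xrn1-AID (group means). All 8 genes had their highest group mean at 10 min and their lowest at 30 min in each arm. RPL10, for example, went from 6465 to 9529 and 1770 CPM in Xrn1-WT. RNR1, of the G1/S and S phase list below, was lower at 10 min in Xrn1-AID, at -1.35 ± 0.21 (edgeR adjusted p = 0.000106).

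Regulators of histone transcription were called lower more often than higher at 10 min. Of 12 such genes, 9 fell at 10 min in Xrn1-WT (24.6% of all genes did) and none rose, among them HIR1 at -1.44 ± 0.15, a repressor of histone genes, and SPT21 at -1.35 ± 0.27, an activator that works with Spt10. In Xrn1-AID 3 of 12 fell (16.6% of all genes), again with SPT21 at -0.97 ± 0.26 and HIR1 at -0.90 ± 0.15. At 30 min 4 of 12 were lower in each arm, where 27.5% (Xrn1-WT) and 26.6% (Xrn1-AID) of all genes were. By library size alone none was lower in Xrn1-WT and 1 in Xrn1-AID. Without stress 1 of the 12 was higher in Xrn1-AID than in Xrn1-WT and 1 lower, where 1003 and 1016 of all 6195 genes were. SPT10 was the higher one, by 1.57 ± 0.51 (edgeR adjusted p = 0.0276), and SWI4 the lower, at -0.67 ± 0.18 (adjusted p = 0.0123).

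Histone chaperones and exchange factors counted 0 higher and 7 lower of 18 at 10 min in Xrn1-WT (19.7% and 24.6% of all genes), with RLF2, a subunit of the CAF-1 chaperone, at -1.35 ± 0.20. At 30 min 2 were higher and 6 lower (29.1% and 27.5% of all genes). The 2 that rose were SCM3, the chaperone of the centromeric histone, at 1.06 ± 0.17, and SWC5, a subunit of SWR1, at 0.95 ± 0.23. Scaled by library size alone, the 30 min count was 5 higher and 0 lower, and POB3 and CSE4 turned from lower to 0.02 and 0.03. CSE4 was counted in this list although it codes for the centromeric histone itself. In Xrn1-AID the counts were 1 higher and 1 lower at 10 min (19.0% and 16.6% of all genes) and 2 higher and 1 lower at 30 min (27.2% and 26.6%), where library size alone gave 4 higher and 0 lower. Of 10 genes for turnover of histone mRNA and protein, 1 rose and 6 fell at 30 min in Xrn1-WT, and 1 rose and 3 fell in Xrn1-AID, shares to read beside the same 30 min percentages of all genes. By library size alone 1 rose and 2 fell in each arm, and LSM1 in Xrn1-WT turned to 0.05. UBC5, a ubiquitin-conjugating enzyme, rose by 2.42 ± 0.26 and 2.66 ± 0.28, while TRF5, a poly(A) polymerase of the TRAMP complex, fell by 1.65 ± 0.17 and 1.39 ± 0.20. RRP6, the nuclear exosome nuclease, fell by 1.53 ± 0.15 and 1.69 ± 0.17.

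Other genes of the cell cycle moved with and apart from the histones. Of 23 G1/S and S phase genes, 12 fell and 1 rose at 10 min in each arm, and 17 (Xrn1-WT) and 20 (Xrn1-AID) fell at 30 min. Among all genes 24.6% and 16.6% were lower at 10 min and 27.5% and 26.6% at 30 min. By library size alone 14 of the 23 fell at 30 min in each arm, and PRI1 in Xrn1-WT turned to 0.12. CLB6, an S phase cyclin, stood at -2.16 ± 0.24 and -1.99 ± 0.24 at 10 min, and PCL1, a G1 cyclin, at 1.41 ± 0.12 and 1.32 ± 0.12. The summed level of the 23 genes fell from 1711 ± 112 CPM to 1316 ± 25.3 and 919 ± 4.72 in Xrn1-WT and from 1624 ± 45.5 to 1203 ± 38.5 and 737 ± 9.02 in Xrn1-AID, with no overlap between times. The list's median log2 change from 10 to 30 min in Xrn1-WT was -0.79, and 0.12 by library size alone. On the TMM scale the core histone sum stood at 5731 ± 925 CPM at 0 min and 7249 ± 1761 at 10 min in Xrn1-WT and 4207 ± 302 and 7495 ± 1031 in Xrn1-AID. As a share of all counts it was 0.564% and then 0.522% in Xrn1-WT, so the direction there turned with the scaling. Of 13 G2/M genes, 12 fell at 30 min in each arm, or 8 in each by library size alone. Of 11 M/G1 genes, 5 rose and 2 fell at 10 min in Xrn1-WT (19.7% and 24.6% of all genes). In Xrn1-AID 4 rose and 0 fell (19.0% and 16.6%). By library size alone the 10 min counts in Xrn1-WT were 4 higher and 4 lower, with a median log2 change of -0.03. At 30 min 6 and 7 of the 11 were lower (27.5% and 26.6%), or 1 and 4 by library size alone. The share of these stage genes in the histone changes was not tested.

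**Figure D5:**
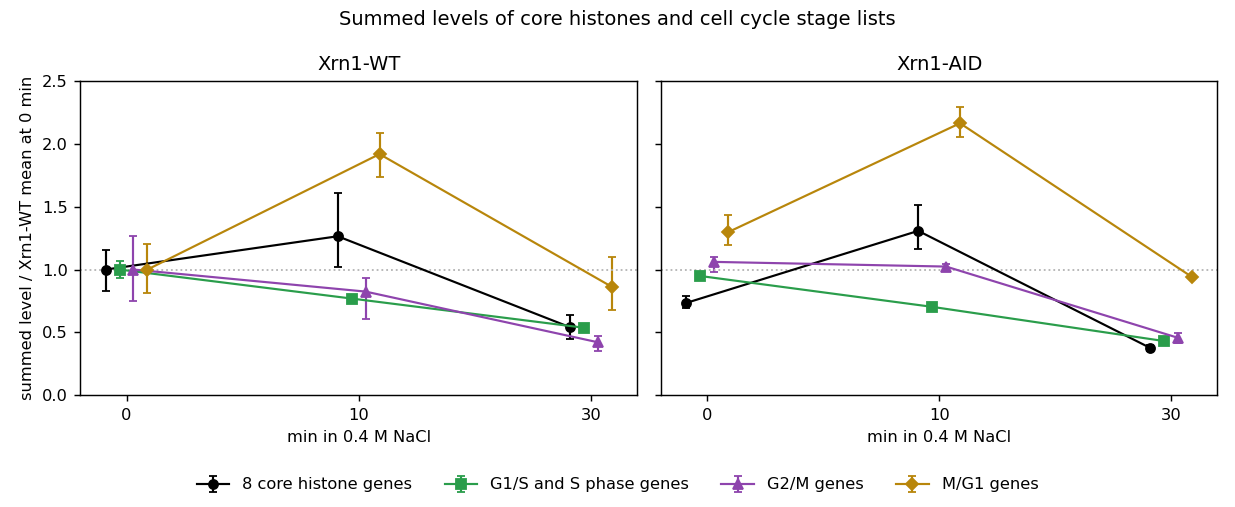
Summed TMM-scaled CPM of the core histone genes and of the G1/S, G2/M and M/G1 lists divided by the Xrn1-WT mean at 0 min, against min in 0.4 M NaCl, with points for group means and bars from the lowest to the highest library. On this scale the G1/S mean falls from 0 to 10 min in both arms and the core histone mean rises, but the core share of all counts in Xrn1-WT goes from 0.564 to 0.522%.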

How the data were processed

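mRNA was sequenced as 50 base single-end reads from a stranded kit, per the labels' protocols. The authors deposited raw read counts per gene for 17 libraries, and the submitters' processing notes name DESeq2 1.22.2, featureCounts 1.5.1, TopHat2 2.1.0 and sacCer3, with no roles; strand setting, treatment of multiply aligned reads and annotation are not given in the sources used here. The 6 groups follow the titles. Features were filtered with filterByExpr (6195 of 7126 kept), scaled by TMM and fitted with edgeR 4.0.16 (R 4.3.3; glmQLFit, robust) with 1 mean per group, for 12 contrasts; p-values were adjusted (Benjamini-Hochberg) over all tested genes, with calls under 0.05. SE is the log2 change divided by the square root of F. CPM are TMM-scaled. The steps were tested on data simulated for Xrn1-WT at 30 against 0 min. They recovered 17.9%, 76.1% and 100% of changes of 1.5-, 2- and 4-fold, with 8 false calls of 137. In that simulation changes of 1.5-fold were thus mostly missed. The real comparison called 1801 genes higher and 1705 lower. The adjusted threshold was therefore looser there, and the simulated shares do not give the recovery in these data.

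Shares within gene pairs were tested by exact permutation within arms or times, adjusted over 12 tests. The 10 members and 6 lists (87 genes, all tested) were chosen with earlier results of these data known. Of each list and contrast, up to 2 called genes per direction with the largest change could be named, and the 8 genes of most similar pattern were ranked by Pearson's r on log2 CPM (prior count 2, mean of at least 10 CPM). Gene names and sequences came from RefSeq, which matched 6048 features. Alternatives were no scaling beyond library size, DESeq2 size factors, 2 filters, the DESeq2 1.42.0 Wald test, replicate blocks, fits of only the compared groups and leaving out each library; omitting the 2 libraries farthest from their groups was added after seeing the data. Same-numbered libraries did not deviate together (median r -0.03, 12 of 40 pairs over 0.1), so numbers were not taken as pairs.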

Additional observations from a re-analysis of the deposited data

How the results depend on the processing

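Counts of called members under other settings were within 1.5 times those reported, apart from the following. By library size alone they were 1 (Xrn1-WT, 10 against 0 min), 4 (Xrn1-WT, 30 against 10 min), 3 (Xrn1-AID against Xrn1-WT at 10 min) and 1 (difference in the change from 10 to 30 min, HTB1 at -1.11), and signs turned for HHF2 (-0.41, Xrn1-WT 10 against 0 min), HHT2, HHF2, HTZ1 and HHO1 (0.38, 0.16, 0.16 and 0.24, Xrn1-WT 30 against 10 min) and HTZ1 (0.14, Xrn1-AID 30 against 10 min). In Xrn1-WT at 10 against 0 min the DESeq2 Wald test gave 4 and a fit of only the compared groups gave 1. Omitting Xrn1-WT 0 min replicate 3 and 10 min replicate 2 gave 2 members for Xrn1-AID against Xrn1-WT at 0 min, 2 at 10 min, 1 for the difference in the change from 10 to 30 min (HHT2 at -1.05, adjusted p = 0.0376), and an HHT1 share 2.72 points higher in Xrn1-AID (exact permutation adjusted p = 0.0267).

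Leaving out 1 library at a time gave, for 10 against 0, 30 against 0 and 30 against 10 min, 0 to 4, 6 to 7 and 9 to 10 called members in Xrn1-WT and 5 to 6, 5 to 7 and 8 to 9 in Xrn1-AID. It gave 1 to 3, 0 to 2 and 0 to 3 between the arms at 0, 10 and 30 min and 0 for each difference between responses, and the HHT1 share between the arms ranged from 1.03 to 2.74 points. A replicate block by the numbers in the titles changed no call on a member, and a block by the numbers in the descriptions, which differ for 1 library, ended 1 (HTZ1, Xrn1-AID 30 against 10 min, -0.48, adjusted p = 0.0537). By library size alone the split of all called genes moved from 1218 higher and 1522 lower to 586 and 2463 in Xrn1-WT at 10 against 0 min, and from 1801 and 1705 to 2410 and 997 at 30 against 0 min. In Xrn1-AID it moved from 1174 and 1028 to 608 and 1553, and from 1685 and 1649 to 1951 and 978. The cause of these moves was not tested. The values hold no spike-in correction and groups held 2 or 3 libraries.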
